A study of Rattus norvegicus with 4 samples.

Results

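Spred1, Spred2, Shc3, Dusp4, Dusp6 and Etv5 (ENSRNOG00000070996, ENSRNOG00000004888, ENSRNOG00000014366, ENSRNOG00000011921, ENSRNOG00000023896 and ENSRNOG00000001785) are 6 genes of the RAS-MAPK signalling pathway, taken here by their symbols from the 30560 genes that the deposited feature lists hold. They were examined in single-nucleus RNA-seq libraries of the nucleus accumbens from Sprague-Dawley rats of 90 to 120 days of age. The groups were saline (1 female and 1 male library) and cocaine at 20 mg per kg (1 female and 1 male library), injected into the peritoneum daily for 7 days, with tissue taken 1 hour after the last injection. Each library pooled punches from 4 rats of 1 sex and treatment, so a group has n = 2 libraries, and sex and replicate are the same thing. The p-values rest mostly on a spread shared over all genes and, to a lesser part, on the spread between these pools. The punch was 2 mm wide and centred on the accumbens core, so other accumbens tissue can be in it. The genes were chosen with results of these data in view, because their change with cocaine differed between D1- and D2-gated nuclei, and that change is therefore given below as a description with no test.

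In this pathway, growth factor receptors and calcium entry load RAS with GTP, and RAS then activates the kinases RAF, MEK and ERK in turn. In striatal medium spiny neurons (MSN, the projection neurons), ERK is activated when dopamine acting on D1 receptors coincides with glutamate input, and it drives immediate-early gene transcription. Cells limit the signal by feedback. SPRED1 and SPRED2 bind neurofibromin and bring this RAS GTPase-activating protein to the membrane, where it switches RAS off. DUSP4 and DUSP6 are dual-specificity phosphatases that dephosphorylate MAP kinases, DUSP4 in the nucleus and DUSP6 in the cytoplasm with preference for ERK. ETV5 is an ETS-family transcription factor whose gene, like Dusp6 and Dusp4, is a common transcriptional readout of ERK activity. SHC3 is a neuronal adaptor that links activated receptors to GRB2 and RAS, so it is not itself an inhibitor.

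Promoter sequence was looked at because 5 of these genes were higher together in cocaine D1-gated nuclei. RefSeq windows of the GRCr8 assembly, 250 bases before the annotated start, were matched for 5 of the 6 genes. These are not the same 5. Dusp4, which was higher, had no matched window, and Dusp6, for which no direction is given below, was matched. Capitals mark matches to 6 motifs linked to ERK or CREB signalling or common in promoters, searched on both strands: the cAMP response element core (CRE core) TGACG, AP-1 (TGANTCA), an ETS core (CGGAAG), EGR (GCGNGGGCG), the SRF CArG box and the GC box (GGGGCGGGG). The windows of the SPRED relatives and of Dusp6 are shown because they hold all the matches found.
Spred1 (GRCr8 chr3:124436980-124437229, + strand): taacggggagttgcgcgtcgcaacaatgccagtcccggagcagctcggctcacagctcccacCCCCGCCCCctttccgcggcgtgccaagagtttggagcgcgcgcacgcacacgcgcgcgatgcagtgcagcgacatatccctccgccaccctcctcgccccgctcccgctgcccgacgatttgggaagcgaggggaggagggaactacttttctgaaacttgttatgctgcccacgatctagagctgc
Spred2 (GRCr8 chr14:98350327-98350576, + strand): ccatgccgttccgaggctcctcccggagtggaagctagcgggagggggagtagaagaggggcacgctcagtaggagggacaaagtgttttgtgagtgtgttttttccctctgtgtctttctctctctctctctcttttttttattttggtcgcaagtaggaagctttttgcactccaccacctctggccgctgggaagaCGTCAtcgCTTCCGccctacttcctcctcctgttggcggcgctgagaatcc
Dusp6 (GRCr8 chr7:35979354-35979603, + strand): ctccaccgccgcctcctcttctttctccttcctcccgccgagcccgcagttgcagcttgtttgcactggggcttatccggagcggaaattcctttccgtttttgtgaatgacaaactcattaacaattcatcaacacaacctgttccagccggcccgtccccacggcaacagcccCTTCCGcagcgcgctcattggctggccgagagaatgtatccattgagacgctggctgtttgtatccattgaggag
Spred1 held a GC box on the reverse strand that begins 188 bases before the start, and 9.0% of the 33469 windows of this length hold one. Spred2 held a reverse cAMP response element core (CRE core) 51 bases and a reverse ETS core 43 bases before the start, motifs found in 18.2% and 13.9% of windows. Dusp6 held a reverse ETS core 75 bases before the start. None of the 6 motifs was found in the windows of Shc3 and Etv5, so no motif searched was common to the 5 matched genes. A match is only a description of the letters and not a measured binding site.

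The libraries held 26228 barcodes, with 31484217 to 40737786 UMIs (unique molecular identifiers, the counted transcript molecules) each, and 10 to 18 barcodes were shared by any pair of libraries. Nuclei with at least 2 UMIs of Drd1 plus Ebf1 were gated as D1 (776, 927, 947 and 968 nuclei in the female saline, female cocaine, male saline and male cocaine libraries) and those with at least 2 Drd2 UMIs as D2 (785, 922, 919 and 986). The 12 to 22 nuclei per library that passed both gates were left out. The gates were checked on genes they do not use. Tac1 stood at 142 to 266 CPM (a gene's UMIs per 1000000 UMIs of the gated nuclei summed in a library) in D1-gated and 5.64 to 18.8 in D2-gated nuclei, and Adora2a at 186 to 222 CPM in D2-gated and 1.97 to 3.63 in D1-gated nuclei, while Sp9, another D2 marker, reached at most 2.26 CPM in D2-gated nuclei. Only 32.1% to 41.8% of D1-gated nuclei had 2 or more Drd1 UMIs, so the D1 gate rests largely on Ebf1, a gene that vascular cells also express. In the D1 gate 0.902% to 2.32% of nuclei had at least 3 UMIs of the vascular markers, and 0 nuclei in the D2 gate had them. In the D1 gate the 2 vascular markers found summed to 5.31 to 17.5 CPM in saline and 10.9 to 17.8 CPM in cocaine libraries, and the 4 oligodendrocyte precursor markers to 13.3 to 48.7 and 10.6 to 29.2 CPM. The 4 glutamatergic neuron markers were higher in both cocaine libraries in each gate, at 0.957 to 4.79 CPM in saline and 4.87 to 11.9 CPM in cocaine D1-gated nuclei and 0.752 to 1.57 and 2.26 to 7.51 CPM in D2-gated nuclei. Of these, Slc17a7 had 10 and 5 UMIs in saline female and male and 64 and 21 UMIs in cocaine D1-gated nuclei, and Slc17a6 and Neurod6 had 0 UMIs in the saline male library. In D2-gated nuclei the 4 oligodendrocyte markers were at 7.64 to 9.99 CPM in saline and 11.5 to 21.3 CPM in cocaine, and the vascular markers at 0.285 to 0.376 and 0.132 to 0.141 CPM. The groups overlapped in both gates for the astrocyte, microglia and interneuron lists. The 4 astrocyte markers had the highest sums of all these lists, at 496 to 608 CPM in saline and 508 to 534 CPM in cocaine D1-gated nuclei. In D2-gated nuclei they were at 487 to 609 and 536 to 593 CPM, beside 3509 to 3547 and 3302 to 3367 CPM in astrocyte-gated nuclei. The part of these markers in the results was not tested.

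In D1-gated nuclei, 5 of the 6 genes were higher in both cocaine libraries than in both saline libraries, by log2 fold changes of 0.30 to 0.76, and in D2-gated nuclei none was. Across all genes tested, 19.2% of 13125 were separated upward in the same way in D1-gated nuclei and 20.5% of 12843 in D2-gated nuclei. At an edgeR adjusted p under 0.05, 0.724% of genes passed in D1-gated and 1.27% in D2-gated nuclei. Because the genes were picked on this contrast, nothing is read from their count. The median log2 fold change over the 6 genes was 0.43 in D1-gated and -0.15 in D2-gated nuclei, against 0.00 over all genes in each. The sums behind these values pool all nuclei of a gate, so more nuclei of a subtype and more RNA per nucleus cannot be told apart.

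**Figure D1:**
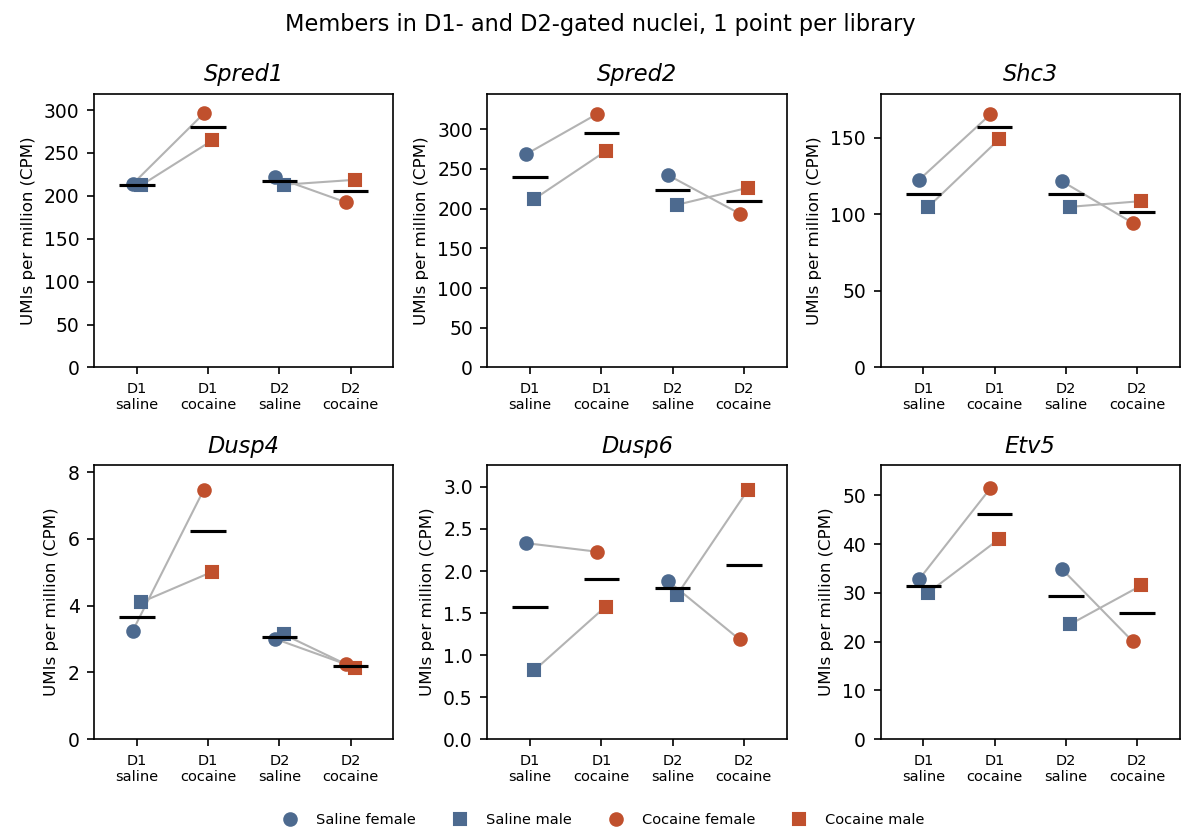
Level of each gene (CPM, y axis from 0) in D1- and D2-gated nuclei of saline and cocaine libraries. Each point is 1 library (circles female, squares male), grey lines join the libraries of a sex and black bars are means of 2 libraries. In D1-gated nuclei Spred1, Spred2, Shc3, Dusp4 and Etv5 are higher in both cocaine libraries, and in D2-gated nuclei the female lines slope down for all 6 genes. The genes were chosen on these changes, so both counts are a description only.

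Among the RAS inhibitors, Spred1 stood at 214 CPM in the saline female and 212 CPM in the saline male library of D1-gated nuclei, and at 296 and 265 CPM in the cocaine female and male libraries. These are means of 213 ± 0.95 CPM and 280 ± 22.1 CPM (SD, n = 2), which differ by 0.39 on the log2 scale. The cocaine libraries lay above both saline libraries, and the saline libraries were nearly equal. In D2-gated nuclei Spred1 was at 222 and 213 CPM in saline and 192 and 219 CPM in cocaine female and male libraries, a log2 fold change of -0.11 with overlapping groups. Spred2 showed a narrower gap. Its D1 levels were 268 CPM (female) and 212 CPM (male) in saline libraries and 319 and 272 CPM in cocaine, a log2 fold change of 0.30, with the saline female library just under the cocaine male one. Leaving out 1 library moved this value between 0.15, when the saline male library was dropped, and 0.46, when the saline female one was, with 0.16 when the cocaine female one was, and gating on Drd1 alone gave 0.20. The D2 levels of Spred2 were 242 and 205 CPM in saline and 194 and 226 CPM in cocaine female and male libraries, so the groups overlapped and the log2 fold change was -0.11.

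Shc3, the adaptor, was at 123 and 105 CPM in saline female and male D1-gated nuclei and at 165 and 149 CPM in cocaine. The means of 114 ± 12.8 and 157 ± 11.6 CPM (SD, n = 2) differ by a log2 fold change of 0.46, and the groups did not overlap. In D2-gated nuclei Shc3 was at 122 and 105 CPM in saline and 94.4 and 109 CPM in cocaine female and male libraries, a log2 fold change of -0.18. The saline levels of Shc3 in the D1 and D2 gates were nearly the same in each sex.

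The phosphatases were sparse in MSN nuclei. Dusp4 had 25 and 30 UMIs in saline female and male D1-gated nuclei and 57 and 35 UMIs in cocaine, or 3.24, 4.10, 7.48 and 5.02 CPM in that order, a log2 fold change of 0.76. Leaving out the cocaine female library, the highest of the 4, gave 0.43, and the Drd1-only gate gave 1.34. In D2-gated nuclei Dusp4 went the other way in both sexes, with 24 and 22 UMIs in saline and 17 and 15 in cocaine female and male libraries, or 3.01, 3.14, 2.24 and 2.12 CPM. Dusp4 was thus the one gene of the 6 whose ratio of cocaine to saline was above 1 in both sexes in the D1 gate and below 1 in both sexes in the D2 gate. In the D2 gate both cocaine libraries lay below both saline libraries, as in 13.1% of all genes tested there. Dusp6 had only 6 to 18 UMIs per library in D1-gated and 9 to 21 in D2-gated nuclei. Its D1 levels of 2.33 and 0.82 CPM in saline female and male and 2.23 and 1.58 CPM in cocaine libraries overlapped. The D1 log2 fold change of Dusp6, 0.29, was -0.28 when the saline male library was dropped, -0.03 when the cocaine female one was, 1.19 when the saline female one was and -0.22 with the Drd1-only gate, so no direction is given for Dusp6.

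Etv5, the transcription factor, stood at 32.8 and 30.0 CPM in saline female and male D1-gated nuclei and at 51.4 and 41.0 CPM in cocaine, means of 31.4 ± 1.99 and 46.2 ± 7.37 CPM (SD, n = 2). The log2 fold change was 0.55, the groups did not overlap, and it was 0.37 without the cocaine female library. In D2-gated nuclei the sexes went apart. Etv5 was at 35.0 CPM in the saline and 20.0 CPM in the cocaine female library, a log2 ratio of -0.80, and at 23.6 and 31.5 CPM in the male libraries, a log2 ratio of 0.42. With 1 library per sex and treatment, a difference between the sexes was not tested. The same pattern, lower with cocaine in the female and not in the male D2-gated nuclei, was seen for Spred1 (log2 ratios of -0.21 and 0.04), Spred2 (-0.32 and 0.14) and Shc3 (-0.37 and 0.05). The ratio of the female libraries was below 1 for all 6 genes in the D2 gate, with Dusp6 at 15 UMIs in saline and 9 in cocaine. The share of all genes with such a ratio is not given, and the genes were chosen on this change. Nothing is read from this count.

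The difference of the cocaine change, D2-gated minus D1-gated, was -0.50 for Spred1, -0.42 for Spred2, -0.66 for Shc3, -1.29 for Dusp4, -0.13 for Dusp6 and -0.78 for Etv5 on the log2 scale. It was the quantity used to choose the genes. For Spred1 and Shc3 it was negative within each sex (-0.68 and -0.28 for Spred1, -0.80 and -0.46 for Shc3 in females and males). For Etv5 it came from the female libraries, at -1.45, and was -0.03 in males. Without the cocaine female library the difference for Etv5 was -0.29 and for Spred2 -0.17. For Dusp6 it went from -1.12 (cocaine male left out) and -0.99 (saline female left out) to 0.36 (saline male left out) and 0.71 (cocaine female left out), and it was below 0 in 6 of 10 alternatives.

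The levels in the gates are given as a description, since the saline levels are part of the difference used to choose the genes. In the 2 saline libraries the level in D2-gated against D1-gated nuclei was 0.05 ± 0.05 (log2, SE) for Spred1, -0.08 ± 0.05 for Spred2, 0.02 ± 0.06 for Shc3 and -0.07 ± 0.11 for Etv5. For the sparse phosphatases it was -0.22 ± 0.31 (Dusp4) and 0.20 ± 0.44 (Dusp6), errors that leave room for larger differences. Over all 4 libraries the levels were -0.20 for Spred1, -0.29 for Spred2, -0.31 for Shc3, -0.88 for Dusp4, 0.14 for Dusp6 and -0.48 for Etv5.

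Spred1, Spred2, Shc3 and Etv5 rose in nuclei that carried immediate-early transcripts in both gates, a contrast within each library that the choice of the genes did not use. Nuclei with at least 3 UMIs over Fos, Fosb, Fosl2, Junb, Egr2, Egr4, Npas4, Arc, Nr4a1 and Nr4a3, called IEG-high here, were 6.65% to 10.8% of D1-gated and 5.88% to 10.2% of D2-gated nuclei, and the rest were IEG-low. Across all genes, 9.98% of the 11601 tested in D1-gated and 9.41% of the 11426 in D2-gated nuclei rose. Dusp4 did not pass in the D2 gate, and Dusp6 was below the filter on low counts in the D1 gate. Dusp4 in the D1 gate and Dusp6 in the D2 gate passed that filter through their IEG-high sums. Their differences are therefore given as a description with no test, and no count over the members is read.

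**Figure D2:**
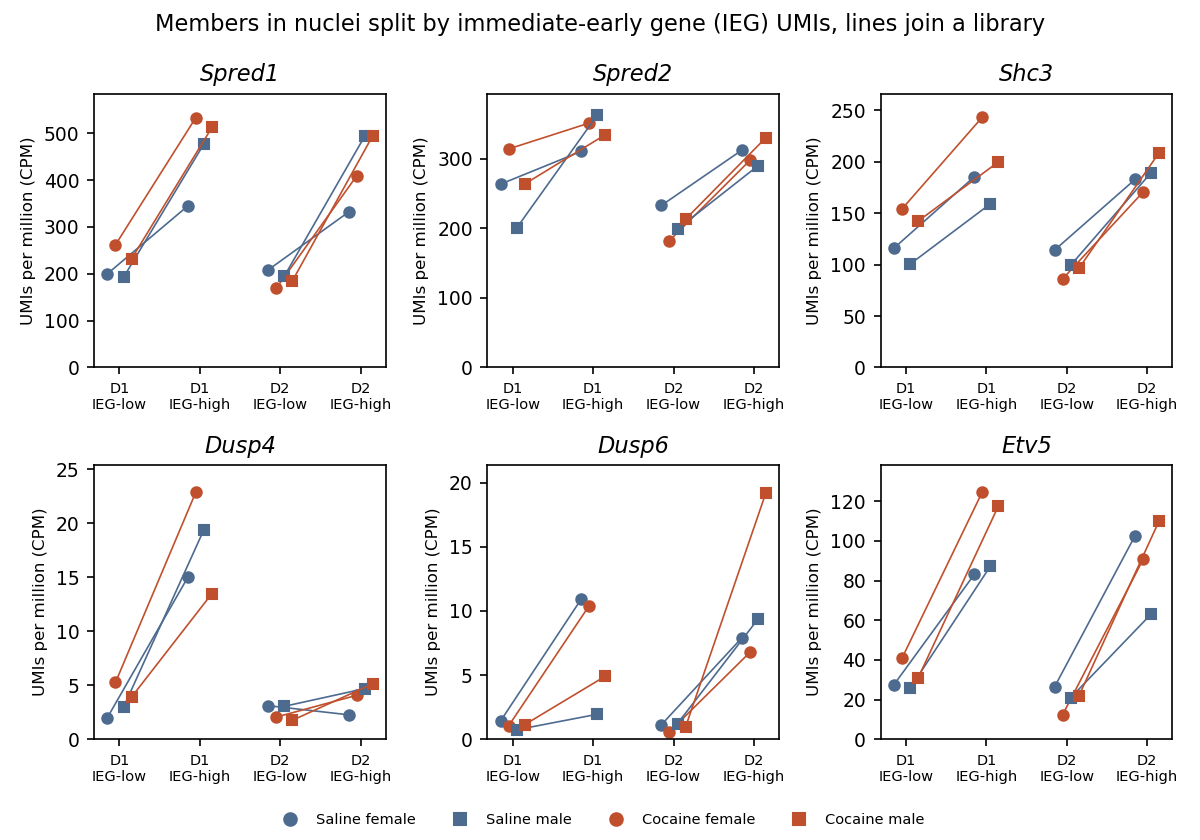
Level of each gene (CPM, y axis from 0) in IEG-low and IEG-high nuclei (under 3, or at least 3, UMIs of 10 immediate-early genes) within the D1 and D2 gates. Each line joins the 2 values of a library, coloured by treatment, with circles for female and squares for male libraries. Spred1, Spred2, Shc3 and Etv5 go up from IEG-low to IEG-high in all 4 libraries in both gates. Dusp6 does so too, with only 23 UMIs in IEG-high D1-gated nuclei over the 4 libraries. Dusp4 does so in 4 of 4 libraries in the D1 gate and 3 of 4 in the D2 gate, also on few UMIs. These counts are a description, with no share over all genes beside them.

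Etv5 was at 27.5, 40.8, 25.6 and 30.8 CPM in IEG-low D1-gated nuclei (female saline, female cocaine, male saline, male cocaine) and at 83.1, 125, 87.3 and 118 CPM in IEG-high ones. Every IEG-high value lay above every IEG-low value, with a log2 difference of 1.92 ± 0.12 (SE, edgeR adjusted p = 4.9e-08). In D2-gated nuclei the Etv5 difference was 2.37 ± 0.17 (edgeR adjusted p = 2.0e-10). Spred1 went from 200, 262, 192 and 232 CPM in IEG-low to 345, 533, 477 and 512 CPM in IEG-high D1-gated nuclei, in the same library order. The groups did not overlap, and the log2 difference was 1.26 ± 0.10 (edgeR adjusted p = 3.2e-07), beside 1.34 ± 0.10 in D2-gated nuclei (edgeR adjusted p = 9.6e-10). Its relative Spred2 moved less, by 0.58 ± 0.10 in D1-gated (edgeR adjusted p = 0.0012) and 0.73 ± 0.09 in D2-gated nuclei (edgeR adjusted p = 6.5e-07). Shc3 rose by 0.81 ± 0.09 in D1-gated (edgeR adjusted p = 2.3e-05) and 1.08 ± 0.10 in D2-gated nuclei (edgeR adjusted p = 2.2e-08).

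For the phosphatases the comparison rests on few molecules. Dusp4 had 11, 22, 10 and 11 UMIs in IEG-high D1-gated nuclei of the female saline, female cocaine, male saline and male cocaine libraries, or 15.0, 22.9, 19.4 and 13.5 CPM, against 2.00, 5.25, 2.94 and 3.90 CPM in IEG-low nuclei. The log2 difference was 2.51, given as a description with no test, and the groups did not overlap. In D2-gated nuclei only 11 Dusp4 UMIs fell in IEG-high nuclei over 4 libraries, and the difference of 0.83 ± 0.57 (SE) did not pass (edgeR adjusted p = 0.41). Dusp6 in D2-gated nuclei had 7, 5, 4 and 15 UMIs in IEG-high nuclei, or 7.90, 6.77, 9.35 and 19.2 CPM, against 0.58 to 1.22 CPM in IEG-low nuclei. The log2 difference of 3.58 is likewise a description with no test. In D1-gated nuclei Dusp6 had 23 UMIs in IEG-high and 29 in IEG-low nuclei over the 4 libraries, at 1.94 to 10.9 CPM and 0.74 to 1.43 CPM, with no test. Whether Dusp4 or Dusp6 differs between the gates in this respect was not tested.

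In IEG-high D1-gated nuclei 33.3% to 57.6% had at least 3 Reln UMIs, against 17.3% to 27.8% of IEG-low ones, and median UMIs per nucleus were 7246 to 10312 and 6739 to 9784. In D2-gated nuclei, where Spred1, Spred2, Shc3 and Etv5 rose as well, 1.25% to 10.1% of IEG-high and 1.27% to 2.55% of IEG-low nuclei had at least 3 Reln UMIs, with the IEG-high share above the IEG-low one in each library but the saline female. The part of Reln nuclei in these differences was not tested. In nuclei thinned to 3000 UMIs and gated at 2 immediate-early UMIs, with the 40 to 54 D1-gated and 2 to 7 D2-gated nuclei per library below that depth left out, Spred1, Spred2, Shc3 and Etv5 still rose in both gates (log2 differences of 1.08, 0.54, 0.75 and 1.96 in the D1 gate, largest edgeR adjusted p = 0.0087), and Dusp4 and Dusp6 no longer passed the filter. In saline libraries alone Etv5 rose by 1.79 ± 0.20 (SE, edgeR adjusted p = 1.7e-12) and Spred1 by 1.16 ± 0.12 (edgeR adjusted p = 1.2e-13) in IEG-high D1-gated nuclei, where 7.16% of genes passed. That fit takes its variance mostly from the spread shared over all genes (prior degrees of freedom of 101). Its small p-values are therefore not a measure of the spread between the saline pools. IEG-high nuclei were 8.63%, 10.7%, 6.65% and 10.8% of D1-gated nuclei in the female saline, female cocaine, male saline and male cocaine libraries. With thinned nuclei these shares were 6.79%, 9.93%, 5.59% and 9.85%. In the IEG-low D1-gated nuclei alone, the log2 ratio of cocaine to saline was 0.39 in females and 0.27 in males for Spred1, 0.41 and 0.50 for Shc3 and 0.57 and 0.27 for Etv5, and with thinned nuclei the male ratio of Etv5 was -0.04. These nuclei are most of those on which the genes were chosen, so the ratios are a description only.

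D1-gated nuclei were also split by 2 known subtype genes, Reln (the extracellular protein reelin) and Htr4 (a serotonin receptor), with at least 3 UMIs of one and under 3 of the other. All 4 of the 6 genes that passed the filter were higher in Reln-gated than in Htr4-gated D1 nuclei, as were 6.86% of the 9538 genes tested. Shc3 was at 134, 201, 144 and 187 CPM in Reln-gated and at 60.7, 98.6, 53.1 and 65.6 CPM in Htr4-gated nuclei (female saline, female cocaine, male saline, male cocaine), with no overlap and a log2 difference of 1.31 ± 0.11 (SE, edgeR adjusted p = 4.4e-08). Etv5 differed by 1.21 ± 0.16 (edgeR adjusted p = 1.2e-05), Spred2 by 0.89 ± 0.10 (edgeR adjusted p = 1.2e-06) and Spred1 by 0.87 ± 0.09 (edgeR adjusted p = 6.4e-07). In saline libraries alone these 4 differences were 1.35, 1.19, 1.10 and 0.90, all with an edgeR adjusted p of at most 0.0021, and 7.14% of all genes passed. These p-values too rest largely on the spread shared over all genes (prior degrees of freedom of 26.5). Dusp4 had 1 to 12 UMIs per library in Htr4-gated nuclei and Dusp6 1 or 2, too few to test.

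In D1-gated nuclei Reln itself was at 284 and 184 CPM in the saline female and male and 362 and 370 CPM in the cocaine female and male libraries. The share of D1-gated nuclei in the Reln gate was 27.8% and 17.5% in the saline and 23.5% and 22.7% in the cocaine female and male libraries, and that in the Htr4 gate 6.83% and 12.9%, and 10.8% and 7.54%. These gates are fixed UMI counts, so the shares can depend on depth. Median UMIs per D1-gated nucleus were 9830.5 and 7400 in the saline and 7853 and 6780.5 in the cocaine female and male libraries. The part of depth in these shares was not tested. Within Reln-gated nuclei the log2 ratio of cocaine to saline was 0.43 in females and 0.38 in males for Spred1, 0.58 and 0.38 for Shc3 and 0.90 and 0.28 for Etv5. Within Htr4-gated nuclei it was 0.77 and 0.16 for Spred1 and 0.69 and 0.31 for Shc3, while Etv5 had 1.17 in females and -0.09 in males. For Spred2 it was 0.14 and 0.29 within Reln-gated and 0.64 and 0.56 within Htr4-gated nuclei. These nuclei are part of those on which the genes were chosen, so nothing is read from the ratios.

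The genes differed in which other cells carried them. Levels are given over the 4 libraries for 7 gated classes, and glutamatergic and Pthlh/Kit interneuron nuclei, with under 25 nuclei in some library, were not tested. Spred1 was found in every class, highest in microglia (381 ± 35.3 CPM, SD, n = 4), then oligodendrocyte precursors (285 ± 16.0), D1-gated (247 ± 40.9), D2-gated (212 ± 13.3), astrocytes (181 ± 30.9), Sst interneurons (125 ± 34.1) and oligodendrocytes (120 ± 12.8). Microglia stood clear of the next class, and the other neighbours in this order overlapped in range. Spred2 was instead highest in the neuronal classes, at 268 ± 43.7 CPM in D1-gated, 217 ± 21.6 in D2-gated and 193 ± 51.5 in Sst interneuron nuclei, and lowest in oligodendrocytes (45.9 ± 14.2) and microglia (52.7 ± 7.00). The SPRED relatives thus had opposite places for microglia.

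**Figure D3:**
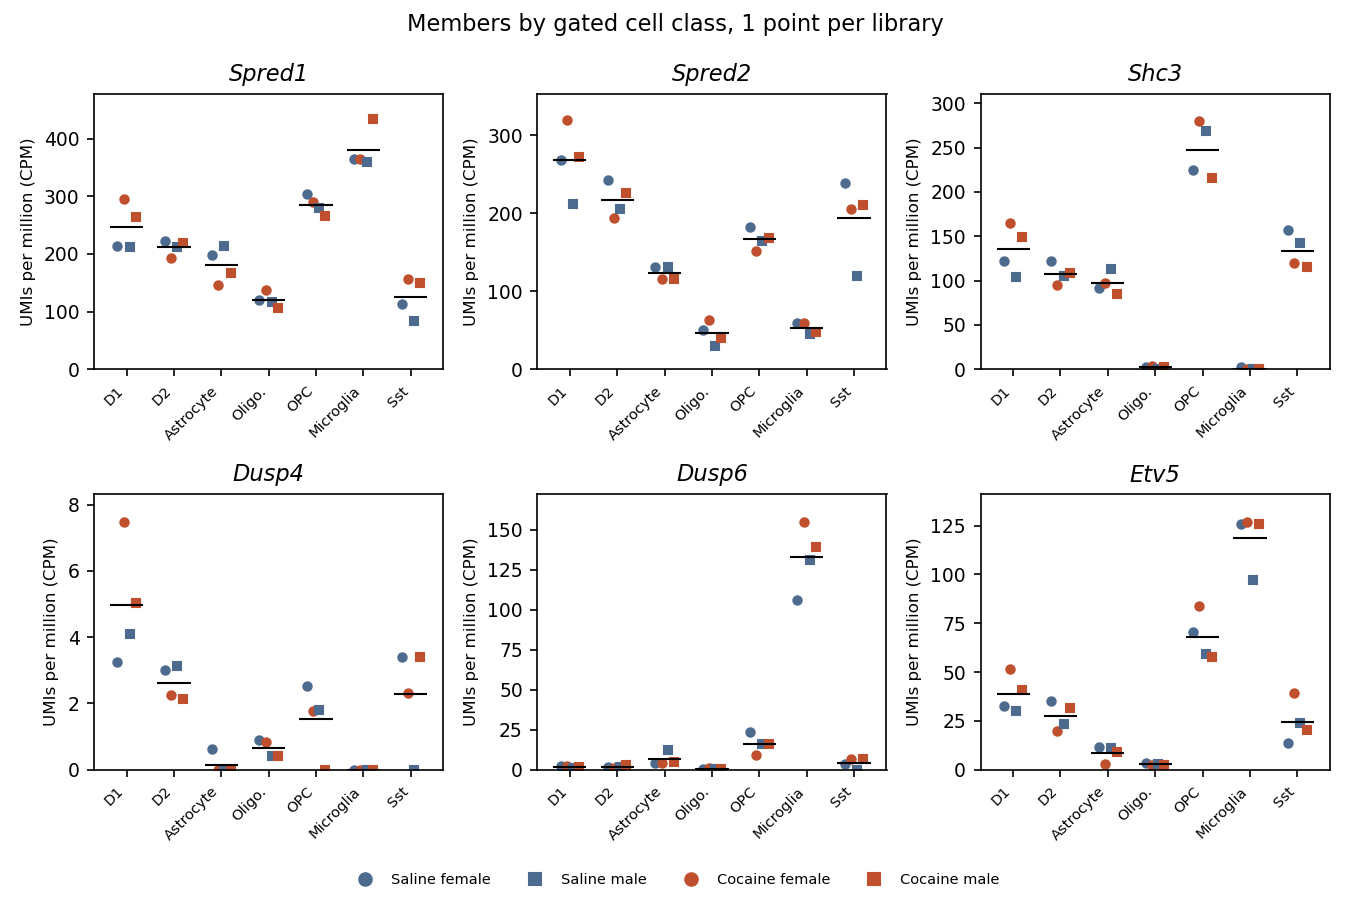
Level of each gene (CPM, y axis from 0) in 7 gated cell classes (Oligo., oligodendrocytes; OPC, oligodendrocyte precursors; Sst, Sst interneurons). Points are single libraries, coloured by treatment with circles for female and squares for male, and black bars are means of 4 libraries. Spred1, Dusp6 and Etv5 are highest in microglia and Shc3 in oligodendrocyte precursors, while Dusp4 has few UMIs in every class.

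Shc3 was highest in oligodendrocyte precursors at 247 ± 31.7 CPM (SD, n = 4), clear of D1-gated nuclei (135 ± 27.1), Sst interneurons (134 ± 19.4), D2-gated nuclei (107 ± 11.3) and astrocytes (96.7 ± 12.1), each overlapping with its neighbour in this order. In oligodendrocytes it was at 2.11 ± 1.24 CPM, and in microglia 1 Shc3 UMI was counted in the saline female library and none in the other 3 libraries, where 3 UMIs would be 9.29 to 17.1 CPM. Etv5 followed another order, with microglia at 119 ± 14.6 CPM, precursors at 67.8 ± 11.9, D1-gated nuclei at 38.8 ± 9.64, D2-gated at 27.5 ± 6.90 and Sst interneurons at 24.2 ± 10.8. Astrocytes (8.65 ± 4.08) and oligodendrocytes (2.72 ± 0.51) were lowest. Microglia, precursors and D1-gated nuclei did not overlap with one another, and the D1, D2 and Sst ranges did. Dusp6 stood out in microglia, at 106 to 155 CPM against 0.82 to 2.97 CPM in MSN nuclei and 8.90 to 23.8 CPM in precursors. Dusp4 reached at most 7.48 CPM in any tested class, in D1-gated nuclei, and had 0 to 4 UMIs per library in each of the 5 other classes. In microglia 3 UMIs would be 8.38 to 17.1 CPM, so these counts do not rank Dusp4 there against D1-gated nuclei. The Sst interneuron sums, at 293947 to 433890 UMIs per library, are small as well.

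None of the genes passed the cocaine test in those 5 classes, of which 0.0935% (astrocytes), 1.8% (oligodendrocytes), 0.0129% (oligodendrocyte precursors), 0.147% (microglia) and 0.864% (Sst interneurons) of tested genes passed. By edgeR 0 of 4, 0 of 2, 0 of 4, 0 of 4 and 0 of 3 of them passed in that order, with 1, 1, 0, 0 and 1 at an unadjusted p under 0.05, and DESeq2 called none. Across all genes tested, 769 of 10695, 1207 of 10910, 443 of 7725, 405 of 5429 and 515 of 6021 had such a p. Spred1 in astrocytes was at 199 and 214 CPM in the saline female and male and at 146 and 167 CPM in the cocaine libraries, with a log2 change of -0.43 ± 0.12 (SE, edgeR adjusted p = 0.28). In Sst interneurons, with 37 to 72 nuclei per library, Spred1 was at 112 and 83.3 CPM in the saline female and male and 157 and 149 CPM in the cocaine libraries, which is 0.61 ± 0.25 on the log2 scale (edgeR adjusted p = 0.39). The groups did not overlap in either, but neither passed over all genes. The share of all genes separated in this way is not given for these classes. In D1-gated nuclei it was 19.2% upward and 16% downward. Spred2 in oligodendrocytes, the other gene with an unadjusted p under 0.05, was at 0.30 ± 0.14 (SE, edgeR adjusted p = 0.42). In microglia the members' log2 fold changes lay between -0.002 and 0.33 with SEs of 0.17 to 0.40.

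Between the sexes no member passed in either gate, where 1.03% of genes in D1-gated and 2.16% in D2-gated nuclei passed. In D1-gated nuclei 3 of 6 had an unadjusted p under 0.05, beside 1949 of all 13125 genes, and DESeq2 called 0. In D2-gated nuclei 0 of 6 had such a p, beside 1796 of 12843 genes, and DESeq2 called 0. Nothing is read from these counts. Spred2 was lower in male D1-gated nuclei by a log2 difference of -0.28 ± 0.07 (SE, edgeR adjusted p = 0.078). Etv5 in D1-gated nuclei was at -0.24 ± 0.11 (edgeR adjusted p = 0.32). Without the saline female library it was at -0.55, in a fit with no treatment covariate. There the only female library is the cocaine one, so sex and cocaine are mixed and nothing is read from this value. Of the listed pathway genes described next, 1 of 71 passed between the sexes in D1-gated nuclei, the adaptor Shc4, lower in males (-1.62 ± 0.29, SE, edgeR adjusted p = 0.024), and 0 of 69 in D2-gated nuclei. Shc4 did not pass without a filter on low counts (edgeR adjusted p = 0.65).

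The rest of the pathway was followed in a list of 77 genes grouped by role. In D1-gated nuclei 2 of 71 genes tested rose with cocaine and 0 fell, beside 0.419% and 0.305% of all genes, and 69 did not pass. Fgfr1, a receptor for fibroblast growth factors, was at 6.09 and 5.20 CPM in saline female and male and 12.6 and 11.6 CPM in cocaine D1-gated nuclei, a log2 change of 1.09 ± 0.20 (SE, edgeR adjusted p = 0.035). Spred3, the third SPRED, went from 26.9 and 30.9 to 39.3 and 44.7 CPM, which is 0.53 ± 0.10 on the log2 scale (edgeR adjusted p = 0.043). The groups did not overlap in either gene. Both calls were lost with DESeq2, without a filter on low counts, without the sex covariate and with any 1 library left out (saline female, cocaine female, saline male or cocaine male, with edgeR adjusted p of 0.11 to 1.00), and Spred3 also with the Drd1-only gate (edgeR adjusted p = 0.33).

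In D2-gated nuclei 1 of 69 genes fell and 0 rose, beside 0.818% and 0.452% of all genes. This was again Fgfr1, at 8.02 and 6.85 CPM in saline female and male and 3.82 and 2.97 CPM in cocaine libraries, with 21 to 64 UMIs each and a log2 change of -1.15 ± 0.27 (SE, edgeR adjusted p = 0.026). This call was lost in 9 of 12 alternatives, including each library left out in turn (edgeR adjusted p of 0.33 to 1.00). The cocaine change of Fgfr1 differed between the gates by -2.25 ± 0.30 on the log2 scale (edgeR adjusted p = 0.0079), the only 1 of 72 listed genes to pass and 1 of 5 among all 13446 genes (0.0372%). Its value was -2.88 to -1.95 over the 10 alternatives run. In those that kept all 4 libraries it passed each time, with a highest edgeR adjusted p of 0.039. More genes passed in this comparison when a library was left out, so those fits are no check of the call. Spred3 was at -0.51 ± 0.13 (edgeR adjusted p = 0.29) and Ntrk2, the BDNF receptor, at -0.33 ± 0.08 (edgeR adjusted p = 0.26), and both did not pass. These 2 genes were singled out after their values were seen. The comparison shares its libraries with the 2 single-gate comparisons.

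**Figure D4:**
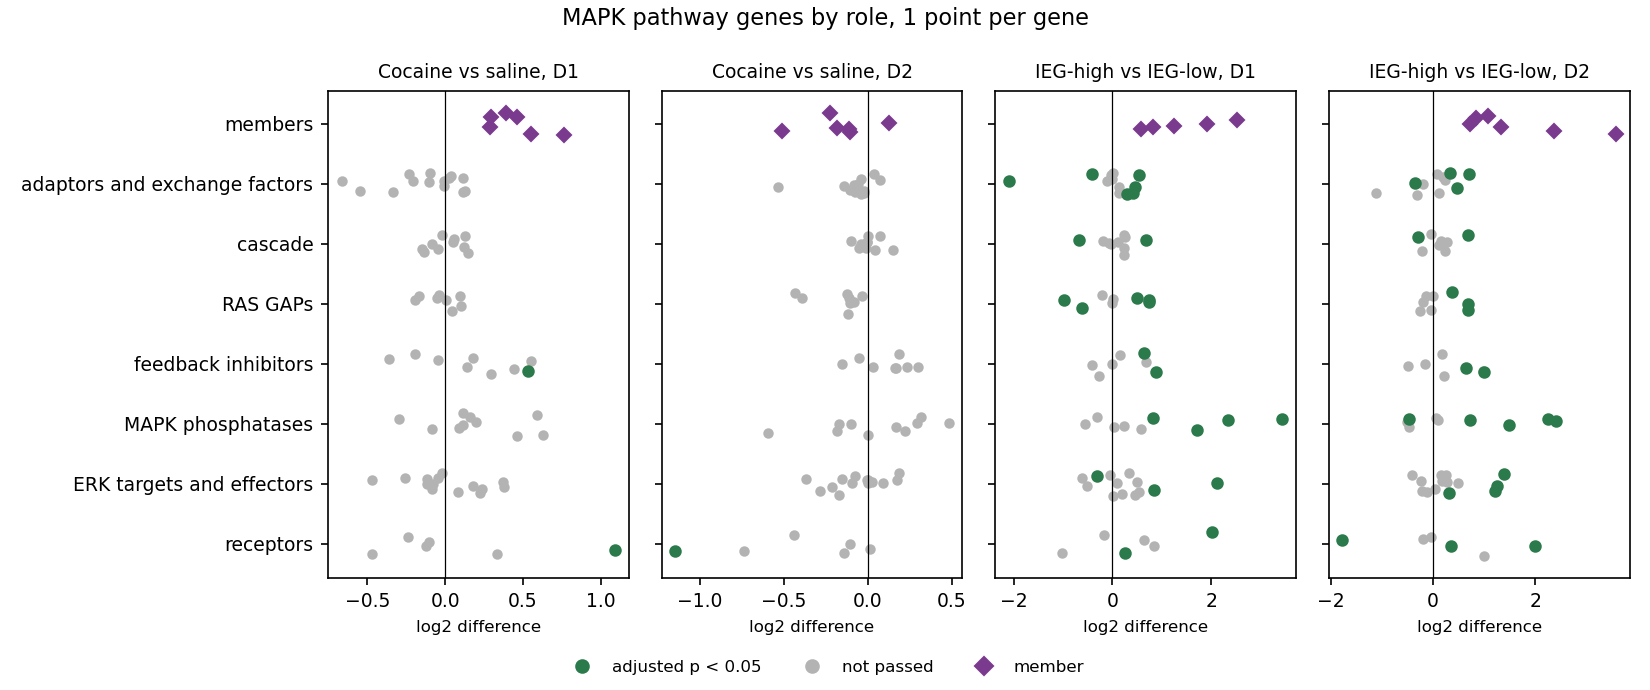
Log2 differences (x axis) of listed pathway genes by role in 4 comparisons: cocaine against saline and IEG-high against IEG-low nuclei, each in D1- and D2-gated nuclei. Each point is 1 gene, green where the edgeR adjusted p is under 0.05, and purple diamonds are the 6 genes chosen here, 5 of them plotted in the third panel. With cocaine the listed genes scatter around 0, with Fgfr1 at 1.09 and -1.15, and in IEG-high nuclei most genes that passed are to the right of 0.

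In IEG-high D1-gated nuclei 18 of 65 listed genes rose and 6 fell, beside 9.98% and 4.36% of all genes, and in D2-gated nuclei 19 of 65 rose and 4 fell, beside 9.41% and 3.16%. The median log2 difference of the list was 0.15 in each gate, against -0.02 over all genes. MAPK phosphatases gave 4 of the 9 tested in the D1 gate, none of which is a member: Dusp5 (3.44), Dusp14 (2.34 ± 0.17, edgeR adjusted p = 1.9e-07), Dusp3 (1.72 ± 0.19) and Ptpn5, the striatal phosphatase STEP (0.81 ± 0.08). In the D2 gate the same 4 rose, by 2.41, 2.25, 1.49 and 0.72, and 1 of 9 fell, Ptprr (-0.47). In the D1 gate Dusp5, like Dusp4, had a value in 9 alternatives, against 10 for Dusp14, Dusp3 and Ptpn5. Whether Dusp5 or other listed genes entered the test through their IEG-high sums was not examined. The values of Dusp5 are therefore given with no test. The counts of phosphatases and of the whole list in this paragraph are a description only. Among receptors Ntrk2 rose by 2.01 ± 0.15 in D1-gated (edgeR adjusted p = 3.2e-07) and 1.99 ± 0.09 in D2-gated nuclei (edgeR adjusted p = 4.0e-14). Phlda1, a gene induced by ERK, rose by 2.11 and 1.39. Of the 8 RAS GTPase-activating proteins, 3 rose and 2 fell in the D1 gate (median log2 difference of -0.003) and 3 rose in the D2 gate. Nf1, which encodes the neurofibromin that SPRED proteins bind, rose by 0.49 ± 0.08 in D1-gated (edgeR adjusted p = 8.4e-04) and 0.37 ± 0.08 in D2-gated nuclei (edgeR adjusted p = 9.3e-04), Rasa2 by 0.75 and 0.70 and Rasal2 by 0.73 and 0.70. In the D1 gate Nf1 no longer passed with thinned nuclei (0.36, edgeR adjusted p = 0.052), nor Rasa2 in saline libraries alone (0.39, edgeR adjusted p = 0.099). The 2 that fell were Rasa3 (-0.98) and Dab2ip (-0.62). In the cascade Braf rose by 0.68 and 0.69, while Ksr1 fell in the D1 gate (-0.68) and Ksr2 in the D2 gate (-0.30). The genes given as falling were named after their values were seen. The exchange factor Rasgrp1 rose by 0.54 in the D1 gate, and in the D2 gate the ETS factor Etv1 rose by 1.21, the adaptor Grb2 by 0.70 and the feedback inhibitor Spry2 by 1.00.

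Between Reln-gated and Htr4-gated D1 nuclei 9 of 57 listed genes were higher and 7 lower, beside 6.86% and 5.99% of all genes. Etv1, an ETS factor related to Etv5, was higher by 2.65 ± 0.22 (SE, edgeR adjusted p = 3.3e-08) and Ptpn5 by 0.89 ± 0.08 (edgeR adjusted p = 1.8e-07). Ptprr, a phosphatase of MAP kinases, differed by -0.86 ± 0.10 (edgeR adjusted p = 2.5e-06) and Ksr1, a scaffold of the kinase cascade, by -1.16 ± 0.11 (edgeR adjusted p = 3.4e-07). Between the D2 and D1 gates over 4 libraries, 5 of 70 listed genes were higher and 14 lower in D2-gated nuclei, beside 6.29% and 8.21% of all genes. The phosphatase Dusp16 was at -1.57 ± 0.11 (edgeR adjusted p = 6.1e-08). The adaptor Gab1 was at -2.30 ± 0.17 (edgeR adjusted p = 1.9e-07), which was -0.55 and not passed (edgeR adjusted p = 0.56) with the Drd1-only gate.

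Across 28 values (7 classes in 4 libraries, which share library and class), the genes whose log2(CPM + 1) followed a member most closely among 10271 genes were found by Pearson correlation, given as a description. Among them were Dctd, Eml4 and Immp2l for Spred1 (r of 0.91, 0.89 and 0.88), Fgf14 and Atp2b2 for Spred2 (0.96 each) and Ntrk3, Nrg3 and Rab27b for Shc3 (0.98, 0.97 and 0.97). For Dusp4 they were Pcsk1, Kif26b and Trerf1 (0.85, 0.83 and 0.83), for Dusp6 Peak1, Csk and Arhgap24 (0.94 each) and for Etv5 Lpin2, Pou2f2 and Kcnt2 (0.95, 0.93 and 0.93). The limit on mean CPM did not apply to the members. Dusp4 had few or no UMIs in the classes outside the MSN gates, so most of its values lie near the floor. Among the members, Spred2 and Shc3 had r = 0.90, Spred1 and Etv5 0.82, and Spred1 and Spred2 0.08. So across cell classes the 6 genes did not form 1 group.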

How the data were processed

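Nuclei of 4 pooled libraries were sequenced (10x Genomics, 3′ chemistry v3). As source files the authors deposited, for each library, raw UMI counts per gene and nucleus, whole numbers that were not normalized. Per the file headers they were made with Cell Ranger 6.1.2, and per the submitters' processing notes the build was rn7. The annotation and how introns were counted are not stated in these sources. The members and lists were chosen with earlier results of these data known.

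A nucleus was kept if it had 200 or more genes and a mitochondrial share up to 5%, and the top Scrublet scores (scanpy 1.11.5, 0.8% per 1000 nuclei, 4.97% to 5.81% of nuclei) were removed, which left 24843 nuclei. Scrublet's own threshold marked 3.34% to 4.50%. Nuclei outside both MSN gates went to a class with at least 3 UMIs from at least 2 of its 4 markers (Pvalb was not used here) and 2 times those of the next class. Counts were then added up within each library and class, and classes needed 25 nuclei in every library.

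The main test was edgeR 4.0.16 in R 4.3.3 (quasi-likelihood, TMM, filterByExpr, Benjamini-Hochberg over all genes at 0.05), with sex as a covariate for cocaine, treatment for sex, and library as a block within libraries. SE is the log2 fold change over the root of F. Cocaine and saline-only fits leave 1 residual degree of freedom per gene. The prior degrees of freedom for cocaine were 10.0 (D1), 27.0 (D2), 169 (oligodendrocytes) and infinity (Sst interneurons). For saline-only fits they were 98.8 (D2 against D1), 101 (IEG-high against IEG-low, D1) and 26.5 (Reln against Htr4). Small p-values in these fits thus rest on the shared trend. In the fits of levels and of the difference over 4 libraries the prior degrees of freedom were also above the residual ones. They were 11.9 and 20.1 (IEG-high against IEG-low, D1 and D2), 15.9 (Reln against Htr4), 10.9 (D2 against D1) and 15.0 (difference of the cocaine change). Those p-values too lean mostly on the shared trend. Leaving out a library dropped the covariate. The tests were checked on simulated data. Fold changes of cocaine to saline within a sex are log2 ratios of CPM with 0.5 added to each count. Overlapping or near-identical genes may share reads, which makes their values uncertain, and 236 symbols occur more than once.

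All 6 members are named in every comparison. Of 80 listed pathway genes 77 were used, and the text names up to 10 per comparison that passed, smallest adjusted p first, with the value in the other gate beside some of them. Up to 3 genes most like a member are named, with a mean CPM of at least 10, and 1 is not reported here. The vascular markers, and saline-only fits for the D2 against D1 (given with no test) and Reln against Htr4 levels, were added after seeing the data. Alternatives were DESeq2 1.42.0, RLE size factors, no filter on low counts, other gates, no doublet removal, thinning to 3000 UMIs and leaving out each library.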

Additional observations from a re-analysis of the deposited data

Results flagged for a closer look

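The cocaine change of Fgfr1 differed between D2-gated and D1-gated nuclei by -2.25 on the log2 scale in the test of the difference itself (edgeR adjusted p = 0.0079, 2 libraries per group and gate).

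For Dusp4 the ratio of cocaine to saline went in opposite directions in the gates in every pair of libraries: log2 ratios were 1.19 and 0.29 in female and male D1-gated nuclei and -0.41 and -0.55 in D2-gated nuclei. The mean of the 2 sexes differed by -1.22, D2-gated minus D1-gated. This difference was not tested, since Dusp4 was chosen on it, and it rests on 15 to 57 UMIs per library.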

How the results depend on the processing

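The calls over all genes moved with the tool and the libraries used, and the causes were not tested. Main counts and, after them, the counts under alternatives are given in each sentence. For cocaine in D1-gated nuclei 95 genes passed by edgeR, 16 by DESeq2, 0 without a filter on low counts, 338 with gates at 3 UMIs, 55 with Drd1 alone, 245 without doublet removal, 251 with nuclei of both gates kept and 3 to 78 with 1 library left out. Of the pathway list 2 passed there, and 0, 0, 6, 2, 5, 6 and 0 did so in the same order. For cocaine in D2-gated nuclei 163 passed, 4 by DESeq2, 250 without a filter, 96 with Drd1 alone, 304 without doublet removal, 95 with nuclei of both gates kept and 0 to 8 with 1 library left out. Of the pathway list 1 passed, and 0, 2, 0, 1, 0 and 0 did so in that order. For the difference of the cocaine change 5 passed, 58 without a filter, 10 with gates at 3 UMIs, 10 with Drd1 alone and 72 to 127 with 1 library left out.

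For levels between the D2 and D1 gates 1872 genes passed, 1030 by DESeq2, 1187 with Drd1 alone and 1523 to 1722 with 1 library left out. Between IEG-high and IEG-low D1-gated nuclei 1664 passed, 1004 by DESeq2, 742 after thinning, 851 in saline libraries alone and 887 to 1521 with 1 library left out. In D2-gated nuclei 1436 passed, 937 by DESeq2, 576 after thinning, 825 in saline libraries alone and 1028 to 1324 with 1 library left out. Between Reln-gated and Htr4-gated nuclei 1225 passed, 656 by DESeq2, 693 in saline libraries alone and 900 to 1168 with 1 library left out. Between the sexes 135 passed in D1-gated nuclei, 24 by DESeq2, 3 without a filter and 107 to 487 with 1 library left out, and 278 in D2-gated nuclei, 13 by DESeq2 and 29 to 326. For cocaine in astrocytes 10 passed, 1 by DESeq2, 0 without a filter and 0 to 2 with 1 library left out; in oligodendrocytes 196, 3 by DESeq2 and 0 to 135; in oligodendrocyte precursors 1, 0 by DESeq2, 8 without a filter and 0 to 6. In microglia 8 passed, 0 by DESeq2, 18 without a filter and 1 to 19 with 1 library left out, and in Sst interneurons 52, 0 by DESeq2 and 26 to 51.

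The replicate number stands for the sex of the pool, and the cocaine fits hold it as a block. Without the replicate block 0 genes passed for cocaine in D1-gated nuclei, D2-gated nuclei, astrocytes, oligodendrocytes and microglia, with 0 of the pathway list in each MSN gate, and 26 passed in Sst interneurons. Without the library as a block 976 passed between the D2 and D1 gates. With 1 pool per sex and treatment, sex, pool and preparation cannot be told apart. Phlda1 was at 0.32 between the D2 and D1 gates and at -0.12 with the Drd1-only gate (edgeR adjusted p = 0.50). The calls of Spred1, Spred2, Shc3 and Etv5 in IEG-high nuclei and between Reln-gated and Htr4-gated nuclei held in every alternative run. Depth limits Dusp4 and Dusp6 most, at 6 to 57 UMIs per library and MSN gate. DESeq2 was not run for the difference between the gates, and glutamatergic and Pthlh/Kit nuclei were too few to test.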
